A study of Mus musculus with 14 samples.

Results

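The genes described here are 37 genes of DNA replication and S phase, measured in bone marrow cultures grown from diabetic and from healthy mice. They were chosen by name, as gene symbols matched to the NCBI gene numbers of the deposited table, and the rule uses no measured value. The 37 genes and all other gene lists below were, however, chosen with earlier results of these data known. All 37 were among the 17890 genes of the table, and all 37 passed the filter on low counts that left 12839 genes for testing. The diabetic group held 4 libraries, from male C57BL/6J mice that entered the study at 8 weeks of age and were made diabetic with streptozotocin, which kills the insulin-secreting cells of the pancreas, given at 42 to 45 mg/kg per day for 5 days after a 12 h fast. Mice counted as diabetic when their non-fasted blood glucose was above 16.9 mmol/L, and their hyperglycaemia lasted 6 weeks before marrow was taken. The healthy group held 4 libraries from control mice of the same strain, sex and starting age, and what these mice were injected with is not given in the sources used here. Marrow progenitors of both groups were then grown for 7 days in DMEM with 5 mmol/L glucose and recombinant mouse M-CSF, the growth factor that drives macrophage formation, so the diabetic cells had left the high glucose of the animal. The labels call the product bone marrow derived macrophages of the first phase. A further 6 libraries of a second phase were not analysed here.

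The healthy columns of the table carry the letter M, which no label explains and which was assigned to the healthy group by elimination. If the letter meant otherwise, every direction below would turn. The labels do not say whether each library came from a separate mouse, and p-values here rest on the library-to-library spread alone, which may be technical. Library totals ran from 19048195 to 20027967 estimated counts. With TMM factors 50.1% of all calls were higher, against 31.3% with library totals alone and 31.0% to 33.3% on FPKM and TPM. Across all 12839 genes, diabetic replicate 3 lay farthest from the healthy libraries and diabetic replicate 1 nearest to them along the first principal component, which held 64.7% of the variance. Expression is given as CPM, gene counts scaled to a common library size with TMM factors, as mean ± SD over 4 libraries per group. Differences are log2 fold changes of diabetic over healthy libraries, ± SE. A gene was called changed at a Benjamini-Hochberg adjusted p under 0.05 in edgeR's quasi-likelihood test, with the adjustment made over all 12839 genes.

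A cell copies its genome once per division. In G1 the origin recognition complex, Cdc6 and Cdt1 load the MCM2-7 helicase onto DNA, and in S phase Cdc45 and the GINS complex join it to form the moving CMG helicase. Primase and DNA polymerase alpha start each strand, the RFC clamp loader places the PCNA ring, and polymerases delta and epsilon extend the strands, while Fen1 and Lig1 finish the Okazaki fragments of the lagging strand. Transcription of many of these genes is switched on at the G1/S border by E2F factors once cyclin and CDK activity has lifted repression by the retinoblastoma family, whereas many genes of G2 and mitosis are controlled through a different promoter element, the cell cycle homology region (CHR).

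Promoter windows, each from 250 bases before to 50 bases after the gene start, were available from RefSeq (GRCm38.p6) for 31 of the 37 genes. An E2F word (TTCCCGC, the variant TTCGCGC, the variant TTGCCGC or the variant TTGGCGC, on either strand) was found in 19 of the 31 windows, or 61.29%, against 16.87% of the 10328 windows of tested genes and 9.72% of all 27025 windows. Among 20 windows of a comparison list of G2 and mitosis genes, 15.0% held an E2F word. The CHR word (TTTGAA or the variant TTCGAA, on either strand) showed the opposite distribution, with a match in 19.35% of the replication and S-phase windows, 80.0% of the G2 and mitosis windows and 14.43% of the windows of tested genes. CCAAT on either strand was found in 61.29% of replication and S-phase windows, 90.0% of G2 and mitosis windows and 39.42% of tested genes, and the GC box GGGCGG in 70.97%, 85.0% and 62.21% of the same sets. The 19 windows held 36 E2F matches, with overlapping matches counted separately. Of the 36 matches, 24 (66.7%) began no more than 100 bases upstream of the gene start or lay downstream of it. Of these 36 matches, 3 overlapped a CCAAT match and 0 overlapped a CHR or GC box match.

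**Figure D1:**
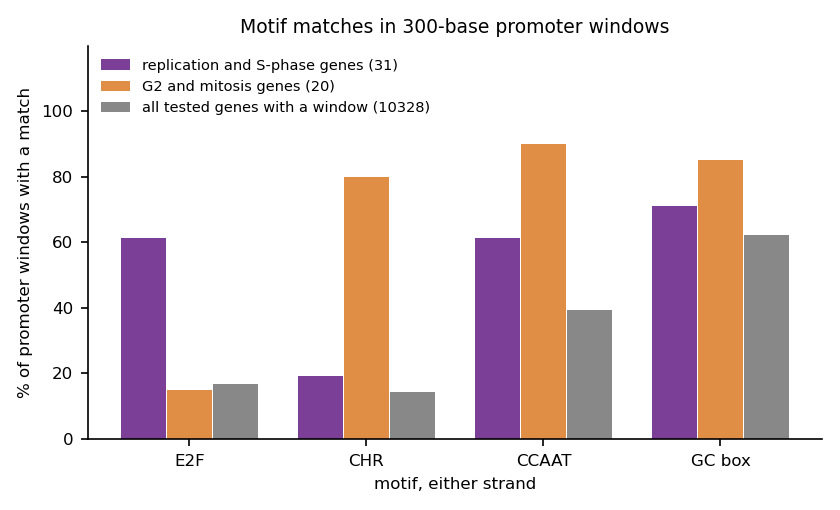
Share of 300-base RefSeq promoter windows holding at least 1 match of each word on either strand (vertical axis, %), for 31 replication and S-phase genes (purple), 20 G2 and mitosis genes (orange) and all 10328 tested genes with a window (grey). E2F words stood in 61.29% of the purple set against 15.0% of the orange set, and CHR words in 19.35% against 80.0%.

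The windows of 5 replication genes are printed because they hold from 1 to 5 E2F words and include 3 genes that changed between the groups; the 12 of 31 windows with no E2F word are not shown. They lie, in GRCm38.p6, at chr1:128359656-128359955 on the minus strand for Mcm6, chrX:93632106-93632405 on the minus strand for Pola1, chr5:151651159-151651458 on the minus strand for Rfc3, chr7:44548766-44549065 on the minus strand for Pold1 and chr12:24708004-24708303 on the plus strand for Rrm2. Each runs 5′ to 3′ along the gene's own strand, and capitals mark E2F words, which merge where they overlap.
Mcm6: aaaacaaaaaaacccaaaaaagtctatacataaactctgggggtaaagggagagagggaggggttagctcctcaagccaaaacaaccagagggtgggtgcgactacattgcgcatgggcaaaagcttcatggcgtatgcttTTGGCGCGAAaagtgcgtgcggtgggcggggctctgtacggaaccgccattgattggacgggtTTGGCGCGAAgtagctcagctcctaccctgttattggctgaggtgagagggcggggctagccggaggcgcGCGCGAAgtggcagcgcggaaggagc
Pola1: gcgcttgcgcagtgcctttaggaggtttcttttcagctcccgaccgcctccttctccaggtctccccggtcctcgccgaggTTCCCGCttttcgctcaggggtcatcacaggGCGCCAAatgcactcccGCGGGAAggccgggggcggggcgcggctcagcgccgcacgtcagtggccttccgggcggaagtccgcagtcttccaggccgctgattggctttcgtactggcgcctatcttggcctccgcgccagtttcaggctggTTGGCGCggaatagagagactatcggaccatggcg
Rfc3: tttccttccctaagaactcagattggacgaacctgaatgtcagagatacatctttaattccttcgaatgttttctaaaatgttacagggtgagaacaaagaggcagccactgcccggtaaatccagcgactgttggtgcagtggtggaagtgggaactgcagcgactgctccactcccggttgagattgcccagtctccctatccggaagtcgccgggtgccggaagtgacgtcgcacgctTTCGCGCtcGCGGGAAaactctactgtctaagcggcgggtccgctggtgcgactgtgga
Pold1: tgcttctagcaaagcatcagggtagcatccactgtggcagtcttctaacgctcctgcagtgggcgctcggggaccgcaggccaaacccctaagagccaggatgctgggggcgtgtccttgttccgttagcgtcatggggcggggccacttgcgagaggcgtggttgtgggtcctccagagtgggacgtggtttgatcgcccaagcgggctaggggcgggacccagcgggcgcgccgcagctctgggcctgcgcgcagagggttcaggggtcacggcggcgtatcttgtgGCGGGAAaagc
Rrm2: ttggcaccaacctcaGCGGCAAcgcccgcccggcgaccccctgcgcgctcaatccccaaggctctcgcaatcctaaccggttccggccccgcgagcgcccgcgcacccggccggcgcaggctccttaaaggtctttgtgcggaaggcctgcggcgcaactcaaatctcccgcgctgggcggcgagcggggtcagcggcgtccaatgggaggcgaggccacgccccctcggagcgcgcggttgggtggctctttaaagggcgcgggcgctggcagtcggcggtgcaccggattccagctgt
Mcm6 held 5 matches, and Pola1 held 4. Of the Mcm6 matches, 4 lay in a pair of 10-base blocks, each with TTGGCGC overlapping TTCGCGC on the other strand. The 2 matches of Rfc3 lay at the gene start. Pold1 held 1 match downstream of its start and Rrm2 held 1 match far upstream. For contrast, the windows of the mitotic genes Ccnb2, at chr9:70421505-70421804 on the minus strand, and Ube2c, at chr2:164769679-164769978 on the plus strand, are printed with CHR words in capitals. Neither held an E2F word.
Ccnb2: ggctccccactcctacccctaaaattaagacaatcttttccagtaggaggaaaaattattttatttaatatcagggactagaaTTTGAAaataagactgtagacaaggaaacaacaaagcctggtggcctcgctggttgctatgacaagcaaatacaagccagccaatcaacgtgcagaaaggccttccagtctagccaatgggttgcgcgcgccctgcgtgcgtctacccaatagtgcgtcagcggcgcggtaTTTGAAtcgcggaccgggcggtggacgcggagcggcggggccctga
Ube2c: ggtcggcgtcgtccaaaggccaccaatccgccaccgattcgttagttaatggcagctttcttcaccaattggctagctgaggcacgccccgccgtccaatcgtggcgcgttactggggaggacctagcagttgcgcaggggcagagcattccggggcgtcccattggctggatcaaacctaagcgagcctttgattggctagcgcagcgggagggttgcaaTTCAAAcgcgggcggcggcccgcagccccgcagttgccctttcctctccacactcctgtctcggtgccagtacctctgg
These matches describe letters in the window and were not tied to binding of any factor.

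The replication and S-phase genes differed little between cultures from diabetic and healthy mice. Of the 37 genes, 3 were higher in the diabetic libraries (8.11%), against 17.4% of all tested genes, and 2 were lower (5.41%), against 17.3%. In either direction 5 genes (13.5%) were called, against 34.7% of all tested genes. The higher genes were Rrm2, Ccne2 and Mcm4, the lower ones Pold1 and Rfc3, and their log2 fold changes ran only from -0.47 to 0.40. The median over the 37 genes was 0.051, beside -0.033 over all tested genes. The sign of this median depended on the scaling: it was -0.053 with library totals alone and -0.082 to -0.066 on the authors' FPKM and TPM values, and it was -0.0040 without diabetic replicate 1. With library totals alone the median of all tested genes was also lower, at -0.14, and the 37 genes lay 0.084 above it, as they did with TMM factors. That distance was 0.016 without diabetic replicate 1, 0.016 without diabetic replicates 1 and 3, and 0.037 to 0.051 on FPKM and TPM values. Without diabetic replicate 1, 3 genes were higher and 2 lower, and without diabetic replicates 1 and 3, 2 were higher and 2 lower. Only 1 gene was lower when diabetic replicate 2 or 4, or healthy replicate 1, 2 or 3, was left out. In the full comparison the remaining 32 genes divided into 18 with a positive and 14 with a negative estimate.

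With TMM factors and group as the only term, the unadjusted 95% interval of the fold change lay inside 1.5-fold in both directions for 35 of the 37 genes, with Pold1 and Ccne2 as the exceptions, against 60% of all tested genes. It lay inside 1.25-fold for 25 of the 37 genes, against 24.1% of all tested genes. These counts were not recomputed under other scalings, which move the estimates. Other tested genes reach lower counts than these 37, where intervals are wider, and the shares were not matched for level. Mean levels of the 37 genes ran from 12.0 CPM for Gins3 to 242 CPM for Pcna, so none was near the limit of detection. Per length, Pcna was also highest (369.8 ± 48.3 TPM in diabetic and 368 ± 26.2 TPM in healthy libraries), and Orc1 was lowest (7.75 ± 1.80 TPM in diabetic and 9.29 ± 1.71 TPM in healthy libraries). CPM values of diabetic and healthy libraries did not overlap for 6 genes, 5 higher (Mcm4, Mcm10, Rrm2, Tyms and Ccne2) and 1 lower (Rfc3), where 16.3% of all tested genes did not overlap and were higher and 18.4% did not overlap and were lower. In bulk RNA of this kind, fewer cycling cells and less RNA per cycling cell cannot be told apart.

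**Figure D2:**
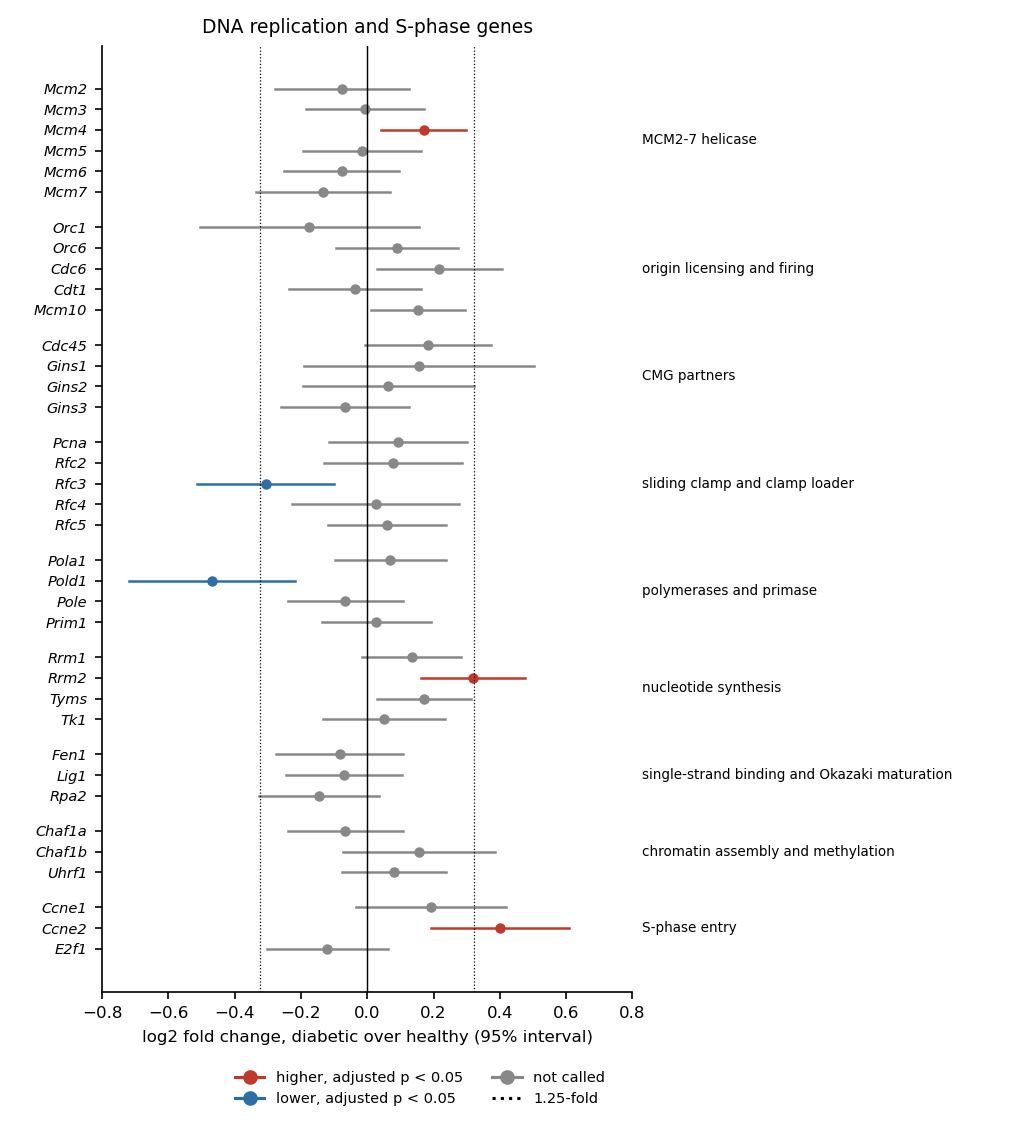
Log2 fold change of diabetic over healthy libraries (horizontal axis) with its unadjusted 95% interval for each of the 37 genes, grouped by role, from 4 libraries per group. Red points were higher, blue points lower and grey points not called at an adjusted p of 0.05, and dotted lines mark 1.25-fold. Most intervals cross 0 and stay within the dotted lines, and Pold1 and Ccne2 reach farthest out.

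The MCM2-7 helicase, the ring of 6 subunits that unwinds DNA, summed to 936 ± 87.1 CPM in diabetic and 957 ± 31.7 CPM in healthy libraries. Of the 6 genes, 1 was called, Mcm4. It lies at chr16:15623897-15637400 (GRCm38.p6) and had 132, 123, 125 and 119.7 CPM in the diabetic libraries, against 109.6, 112, 110.1 and 113 CPM in the healthy libraries. The groups did not overlap, and the spread was small in both. Mcm4 averaged 125 ± 5.15 CPM in diabetic and 111 ± 1.61 CPM in healthy libraries, a log2 fold change of 0.17 ± 0.058 (edgeR adjusted p = 0.0425), or 1.13-fold with an interval of 1.03 to 1.23. This call was marginal. It ended when the replicate number entered as a block (log2 fold change 0.17, edgeR adjusted p = 0.0517), when diabetic replicate 2 or any single healthy library was left out, and with library totals alone, where the estimate was 0.066, and in all under 17 of 26 alternatives. The other 5 subunits had negative estimates, none called. Mcm3, the subunit with the least difference, had 214, 179, 175 and 172 CPM in the diabetic libraries, against 194, 184, 177 and 189 CPM in the healthy libraries, with diabetic replicate 1 above and diabetic replicates 3 and 4 below every healthy library. Mcm2, Mcm5, Mcm6 and Mcm7 had log2 fold changes of -0.076, -0.016, -0.078 and -0.13. In TPM, the authors' length-scaled unit in which levels of different genes can be set side by side, the subunits were not equal. Mcm6 was highest at 126 ± 16.8 TPM in diabetic and 141 ± 5.69 TPM in healthy libraries. Mcm4 stood at 63.4 ± 4.04 TPM in diabetic and 59.9 ± 1.84 TPM in healthy libraries, and Mcm2 at 62.5 ± 10.3 TPM in diabetic and 69.99 ± 4.16 TPM in healthy libraries, so that Mcm2 was lowest of the 6 in diabetic and Mcm4 lowest in healthy libraries. Mcm6 exceeded Mcm2 and Mcm4 by more than their SDs in both groups. In diabetic libraries Mcm6, Mcm3 and Mcm7 lay within their spread of each other, and in healthy libraries Mcm6 exceeded Mcm3 by more than their SDs.

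Licensing and firing factors held 0 calls among 5 genes. Cdc6, the ATPase that loads the helicase with Orc1, came nearest. It had 43.6, 38.8, 43.6 and 35.5 CPM in the diabetic libraries, against 35.2, 31.8, 34.8 and 37.1 CPM in the healthy libraries. The groups overlapped only through diabetic replicate 4, and the log2 fold change was 0.22 ± 0.085 (edgeR adjusted p = 0.0702). With DESeq2 size factors, with DESeq2's Wald test and without diabetic replicate 4 Cdc6 passed the threshold. Mcm10, which helps activate the loaded helicase, averaged 40.4 ± 1.88 CPM in diabetic and 36.3 ± 1.19 CPM in healthy libraries without overlap of the groups (log2 fold change 0.15, edgeR adjusted p = 0.0884). Cdt1, the partner of Cdc6 in loading, had 51.5, 44.1, 47.0 and 41.7 CPM in the diabetic libraries, against 54.2, 43.8, 46.5 and 44.7 CPM in the healthy libraries, and its libraries were interleaved. Orc1, the origin recognition subunit whose level varies most over the cell cycle, and Orc6 had estimates of -0.17 and 0.090. Orc1 had the widest interval of the 5, from 0.706- to 1.11-fold, at a mean of 14.2 ± 2.60 CPM in diabetic and 16.1 ± 2.61 CPM in healthy libraries.

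Partners of the helicase in the CMG complex were not called either, in 0 of 4 genes. Cdc45 had 70.9, 60.7, 73.5 and 60.02 CPM in the diabetic libraries, against 58.4, 55.2, 55.8 and 64.3 CPM in the healthy libraries, with a log2 fold change of 0.18 ± 0.086 (edgeR adjusted p = 0.124). Diabetic replicates 1 and 3 lay above every healthy library, and the other two diabetic libraries lay among them. The deposited table lists 3 Cdc45 transcripts a second time with the same counts, and whether these entries share reads or repeat them could not be resolved. Without such second entries, an alternative chosen after seeing the data, the estimate was 0.33 and passed the threshold (edgeR adjusted p = 0.0308). Of the GINS subunits, Gins2 had 14.8, 15.0, 10.9 and 12.5 CPM in the diabetic libraries, against 13.3, 13.3, 11.6 and 12.6 CPM in the healthy libraries, with diabetic libraries both above and below every healthy one. Gins1 and Gins3 had estimates of 0.16 and -0.067. In TPM, Gins1 (25.2 ± 6.92 TPM in diabetic and 23.8 ± 2.08 TPM in healthy libraries) and Gins2 (24.1 ± 4.40 TPM in diabetic and 24.5 ± 1.203 TPM in healthy libraries) were level, while Gins3 was lower than both (8.89 ± 0.454 TPM in diabetic and 9.93 ± 0.184 TPM in healthy libraries).

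Of the sliding clamp and its loader, 1 of 5 genes was called. Pcna, the ring that tethers polymerases to DNA, was the most abundant of the 37 genes and averaged 249.8 ± 27.7 CPM in diabetic and 234 ± 21.5 CPM in healthy libraries (log2 fold change 0.092). Rfc3, a small subunit of the clamp loader at chr5:151642817-151651208 on the minus strand, had 17.3, 16.6, 16.8 and 14.4 CPM in the diabetic libraries, against 21.8, 20.0, 20.8 and 17.9 CPM in the healthy libraries. Every diabetic library lay below every healthy one. Rfc3 averaged 16.3 ± 1.30 CPM in diabetic and 20.1 ± 1.69 CPM in healthy libraries, a log2 fold change of -0.31 ± 0.094 (edgeR adjusted p = 0.0278), or 0.809-fold with an interval of 0.7002 to 0.934. Leaving out diabetic replicate 2 or 4 or healthy replicate 1, 2 or 3 ended the call, with edgeR adjusted p from 0.0566 to 0.104 and log2 fold changes from -0.32 to -0.23. The other loader subunits were not called. Rfc4 had 25.0, 18.8, 17.6 and 22.1 CPM in the diabetic libraries, against 21.2, 21.0, 18.5 and 21.3 CPM in the healthy libraries, with the diabetic libraries on both sides of the healthy ones. Rfc2, Rfc4 and Rfc5 had estimates of 0.078, 0.026 and 0.060. Rfc3 had the only negative estimate among the 5 clamp and loader genes, and a test of the difference between subunits was not made. Pcna shares sequence with the annotated pseudogenes Pcna-ps1 and Pcna-ps2, and Tyms with Tyms-ps, so their counts are uncertain where reads could match both.

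The largest decrease was in Pold1, the catalytic subunit of polymerase delta, which copies the lagging strand, at chr7:44532744-44548815 on the minus strand. It had 72.0, 58.0, 54.0 and 54.9 CPM in the diabetic libraries, against 93.4, 69.0, 86.8 and 81.2 CPM in the healthy libraries. Diabetic replicate 1 was above healthy replicate 2, so the groups overlapped there, and the other 3 diabetic libraries lay below every healthy one. Pold1 averaged 59.7 ± 8.40 CPM in diabetic and 82.6 ± 10.3 CPM in healthy libraries, a log2 fold change of -0.47 ± 0.11 (edgeR adjusted p = 0.00987), or 0.723-fold with an interval of 0.608 to 0.860. The call held under all 26 alternative settings, with estimates from -0.57 to -0.40. Prim1, the catalytic primase subunit, had 37.7, 31.7, 31.7 and 33.5 CPM in the diabetic libraries, against 32.8, 32.4, 33.2 and 33.7 CPM in the healthy libraries, and apart from the high diabetic replicate 1 the libraries lay close together. Pola1, which extends the primers, and Pole, the leading-strand polymerase, had estimates of 0.070 and -0.066. Summed over the 4 genes, polymerases and primase had 202, 175, 171 and 175 CPM in the diabetic libraries, against 208, 192, 204 and 206 CPM in the healthy libraries, with 3 diabetic libraries below all healthy ones. This sum includes Pold1, the only called gene of the 4. Pola1 and Prim1 had small positive estimates (0.070 and 0.027), and Pole a small negative one, so the lower sum does not describe each gene.

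Nucleotide synthesis genes all had positive estimates, and 1 of 4 was called. Rrm2, the S-phase subunit of ribonucleotide reductase, which makes deoxynucleotides, lies at chr12:24708254-24714146 on the plus strand and had 171, 165, 183 and 152 CPM in the diabetic libraries, against 142, 135, 131 and 130.4 CPM in the healthy libraries. Every diabetic library lay above every healthy one. Rrm2 averaged 168 ± 12.9 CPM in diabetic and 134 ± 5.14 CPM in healthy libraries, a log2 fold change of 0.32 ± 0.071 (edgeR adjusted p = 0.00635), or 1.25-fold with an interval of 1.12 to 1.39. The call held under all 26 alternative settings, with estimates from 0.21 to 0.39. Its partner subunit Rrm1 averaged 228 ± 15.0 CPM in diabetic and 208 ± 7.12 CPM in healthy libraries (log2 fold change 0.13, edgeR adjusted p = 0.149). In TPM the pair stood at 141 ± 9.36 TPM in diabetic and 120.3 ± 2.16 TPM in healthy libraries for Rrm2 and 104 ± 8.62 TPM in diabetic and 100.4 ± 1.29 TPM in healthy libraries for Rrm1. Tyms, which makes thymidylate, averaged 55.0 ± 2.92 CPM in diabetic and 48.9 ± 1.83 CPM in healthy libraries without overlap of the groups (log2 fold change 0.17, edgeR adjusted p = 0.0614). It passed the threshold with DESeq2 size factors, with DESeq2's Wald test, with voom with quality weights and without diabetic replicate 3. Tk1, the thymidine salvage kinase of S phase, had 34.7, 30.5, 33.4 and 30.3 CPM in the diabetic libraries, against 35.0, 28.9, 29.9 and 30.7 CPM in the healthy libraries, interleaved. Summed over the 4 genes the level was 509.7, 478, 501 and 445 CPM in the diabetic libraries, against 446, 416, 413 and 415 CPM in the healthy libraries, with only diabetic replicate 4 inside the healthy range.

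Okazaki fragment and single-strand binding genes had 0 calls among 3, with estimates of -0.15 for Rpa2, a subunit of the single-strand binding protein, -0.083 for Fen1, the flap endonuclease, and -0.070 for the ligase Lig1. Rpa2 had 48.6, 40.95, 40.8 and 39.4 CPM in the diabetic libraries, against 51.0, 45.6, 44.5 and 46.9 CPM in the healthy libraries, where 3 diabetic libraries lay below all healthy ones and diabetic replicate 1 lay among them. With voom with quality weights Rpa2 passed the threshold as lower (log2 fold change -0.17, limma adjusted p = 0.0494). Lig1 had 66.0, 63.1, 71.5 and 57.7 CPM in the diabetic libraries, against 71.1, 71.6, 62.4 and 66.1 CPM in the healthy libraries, interleaved. Chromatin assembly and maintenance methylation also had 0 calls among 3. Chaf1b and Chaf1a are subunits of the factor that places histones behind the fork. Chaf1b had 22.5, 19.6, 20.9 and 18.9 CPM in the diabetic libraries, against 21.2, 18.8, 15.8 and 17.6 CPM in the healthy libraries, and Chaf1a had 59.0, 50.2, 52.0 and 46.7 CPM in the diabetic libraries, against 57.3, 53.6, 51.9 and 55.1 CPM in the healthy libraries. Both pairs of groups overlapped, with estimates of 0.16 and -0.067, and Uhrf1, which guides maintenance methylation, had an estimate of 0.081.

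S-phase entry was led by Ccne2, cyclin E2, an activator of CDK2, at chr4:11190433-11204779. It had 45.0, 45.9, 52.7 and 37.9 CPM in the diabetic libraries, against 34.1, 36.1, 33.0 and 34.4 CPM in the healthy libraries. All diabetic libraries lay above all healthy ones, with diabetic replicate 3 highest and replicate 4 nearest to the healthy range. Ccne2 averaged 45.4 ± 6.03 CPM in diabetic and 34.4 ± 1.27 CPM in healthy libraries, a log2 fold change of 0.40 ± 0.094 (edgeR adjusted p = 0.0084), or 1.32-fold with an interval of 1.14 to 1.52. Ccne2 overlaps the gene Ints8 over 5622 bases. Ints8 was also higher, at 59.7 ± 2.30 CPM in diabetic and 47.5 ± 6.77 CPM in healthy libraries (log2 fold change 0.33, edgeR adjusted p = 0.0246). Whether the counting used strand is not given, so reads of the 2 genes in the shared stretch cannot be told apart. The other cyclin E gene, Ccne1, had an estimate of 0.19 and was not called (edgeR adjusted p = 0.164). E2f1, the activating transcription factor of the G1/S border, had 29.5, 31.8, 32.7 and 27.8 CPM in the diabetic libraries, against 36.9, 31.5, 32.3 and 31.7 CPM in the healthy libraries, with a log2 fold change of -0.12 ± 0.083 (edgeR adjusted p = 0.277). It was called lower with library totals alone and on log2 FPKM, where the median of all tested genes was lower too.

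**Figure D3:**
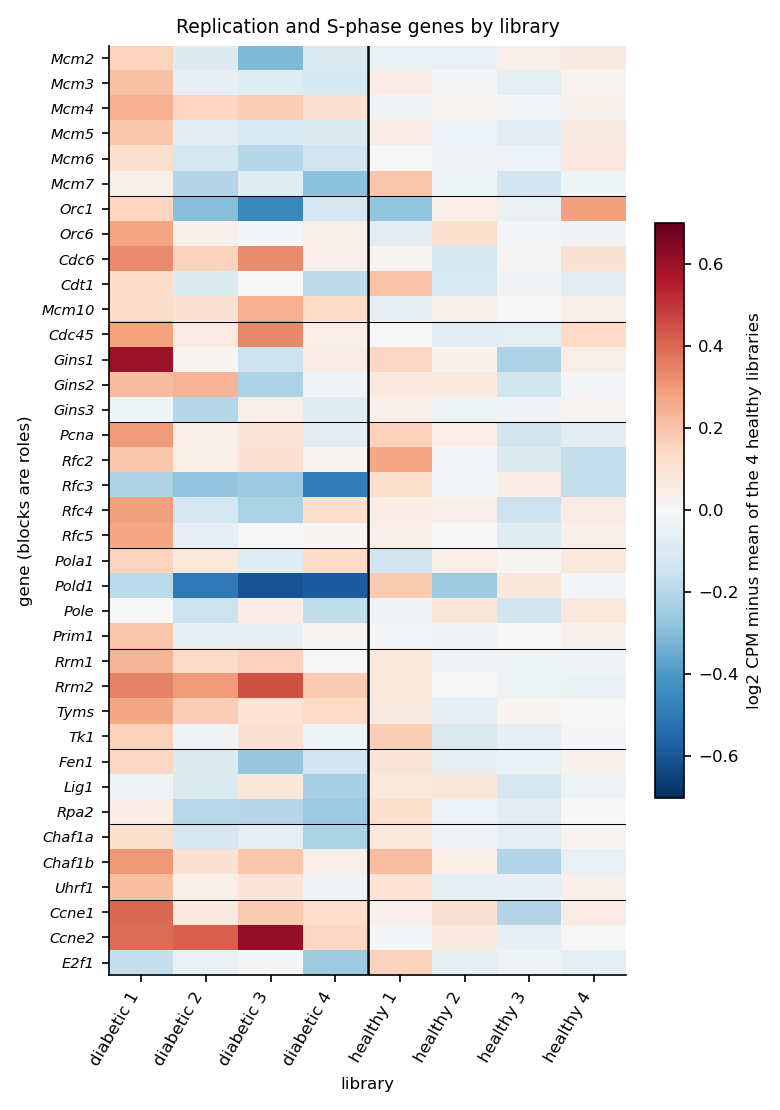
Log2 CPM of each of the 37 genes in each library minus the mean of the 4 healthy libraries (colour scale), with genes as rows in blocks by role and the 4 diabetic libraries left of the 4 healthy ones. The column of diabetic replicate 1 is red in most rows, and diabetic replicate 4 is the palest or bluest of its group in many; rows for Rrm2 and Ccne2 are red and those for Pold1 and Rfc3 blue in all 4 diabetic libraries.

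Within groups, most of the 37 genes deviated in the same libraries. Diabetic replicate 1 was above its group's mean for 34 of 37 genes, with a median deviation of 0.17 on the log2 scale, and it was the highest of all 8 libraries for 19 genes. Diabetic replicate 4 was above the mean for only 3 genes and was the lowest diabetic library for 20. Among healthy libraries, replicate 1 was above the mean for 28 genes and replicate 3 for 8. Such counts were not made over all tested genes. Whether these deviations are particular to the 37 genes or shared by the whole library was not tested. Summed over the 37 genes, the level was 3107, 2719.7, 2770.3 and 2609.7 CPM in the diabetic libraries, against 2883, 2699, 2632 and 2746 CPM in the healthy libraries. The excess of diabetic replicate 1 over the other diabetic libraries was larger than the difference between the group means, 2802 ± 214 CPM in diabetic and 2740.1 ± 106 CPM in healthy libraries. Diabetic replicate 1 also had the highest diabetic sum of stem and progenitor markers, 455 CPM against 288 to 360.1 CPM in the other three. It had the lowest sum of late neutrophil markers, 39610.0 CPM against 46811 to 62728 CPM. Among diabetic libraries it was also highest in the sums of early neutrophil, erythroid, mast and basophil, and dendritic cell markers. It was lowest in those of macrophage markers and of mature B and plasma cell markers. In the pro-B and pre-B, T and NK, and megakaryocyte sums it was neither. The part of these cells in its high replication gene level was not tested.

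Several replication genes are counted over more than 1 RefSeq transcript, and for Tk1 the split between transcripts separated the groups while the gene was not called. The transcript NM_009387 held 72.5, 71.1, 78.9 and 76.7% in the diabetic libraries, against 50.4, 43.0, 60.1 and 43.2% in the healthy libraries. The groups did not overlap, and the mean share was 74.8 ± 3.60% in diabetic and 49.2 ± 8.08% in healthy libraries. A predicted transcript, XM_030245917, took most of the rest, at 19.4 ± 5.69% in diabetic and 36.9 ± 4.12% in healthy libraries. Counted on NM_009387 alone, Tk1 had a log2 fold change of 0.65 (edgeR adjusted p = 0.0226), beside 0.051 for the whole gene. Tk1 also overlaps Afmid over 585 bases, and Afmid was lower, at 6.52 ± 1.03 CPM in diabetic and 8.82 ± 0.586 CPM in healthy libraries (edgeR adjusted p = 0.0236). The shares come from the authors' division of reads between transcripts, and no test of the shares was made.

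**Figure D4:**
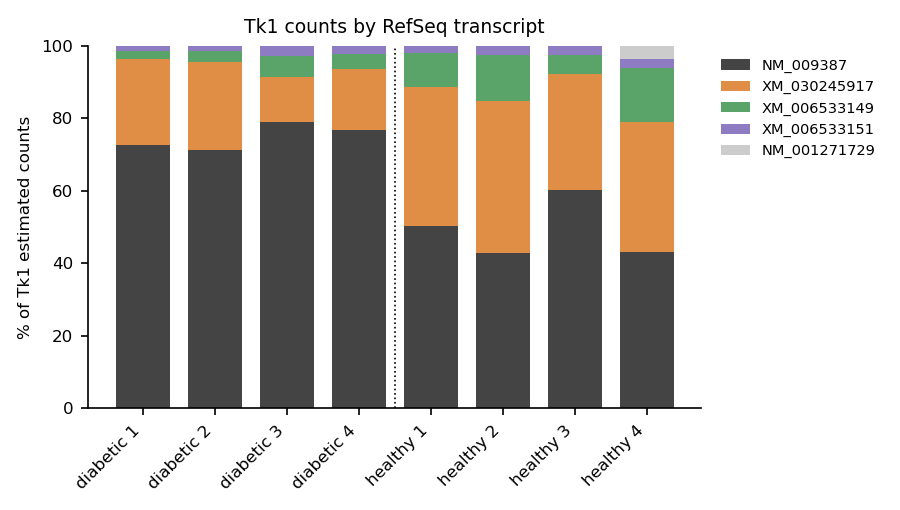
Share of the estimated counts of Tk1 on each of its 5 RefSeq transcripts (stacked bars, % of the gene's counts), with 1 bar per library and the 4 diabetic libraries left of the 4 healthy ones. The share of NM_009387 ran from 71.1% to 78.9% in diabetic and from 43.0% to 60.1% in healthy libraries.

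E2f1 showed a split of the same kind in the other direction. Its transcript NM_007891 held 67.4, 64.6, 50.9 and 57.2% in the diabetic libraries, against 91.2, 81.0, 83.0 and 65.5% in the healthy libraries, with overlap between healthy replicate 4 and diabetic replicate 1. On that transcript alone the log2 fold change was -0.56 (edgeR adjusted p = 0.0471), beside -0.12 for the gene. For Cdc45, the transcript with the most counts gave an estimate of -0.21 against 0.18 for the gene. Ccne2 was spread over 6 transcripts, and the share of the most abundant one ranged from 6.00% to 62.6% between libraries. That transcript alone gave a log2 fold change of 0.49 that was not called (edgeR adjusted p = 0.61). Another Ccne2 transcript, NM_001282943, held 24.7, 19.8, 9.18 and 38.4% in diabetic and 46.8, 38.9, 42.2 and 40.0% in healthy libraries. Its groups did not overlap, and its share was lower where the gene was higher. The predicted transcript XM_006537574 held 16.1 ± 17.0% in diabetic and 2.43 ± 3.03% in healthy libraries. How far the call of Ccne2 rests on the division of reads was not tested. Rrm2, Mcm4, Pcna, Mcm2 and Rrm1 each had a single transcript, so this choice did not bear on how their reads were divided.

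Some replication genes start head to head with a neighbour on the other strand. Ap4m1 starts 138 bases from Mcm7, Prpf38a 118 bases from Orc1 and Ufd1 322 bases from Cdc45. None of these 3 neighbours was called, with log2 fold changes of -0.23, -0.12 and 0.090 (edgeR adjusted p = 0.0672, 0.296 and 0.338), beside -0.13, -0.17 and 0.18 for the replication genes they face. Each of the 3 estimates had the sign of its partner. These pairs also overlap by 91, 3632 and 237 bases, so some reads could belong to either gene.

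Of 39 further replication genes, 3 were higher and 2 lower (12.8% called, against 34.7% of all tested genes), with a median log2 fold change of -0.0081. Higher were Orc4, an origin recognition subunit (0.32 ± 0.070, edgeR adjusted p = 0.00632), Mcmbp, an MCM-binding chaperone (0.24 ± 0.064, adjusted p = 0.0159), and Dna2, a nuclease and helicase of flap processing (0.29 ± 0.084, adjusted p = 0.0225). Lower were Pola2, the accessory subunit of polymerase alpha (-0.32 ± 0.080, adjusted p = 0.0115), and Rnaseh2a, which removes ribonucleotides from DNA (-0.38 ± 0.10, adjusted p = 0.0178). Of 22 S-phase repair and checkpoint genes, 2 were higher (Chek1, the checkpoint kinase, 0.28, and the clamp loader Rad17, 0.21) and 2 lower, among them the mismatch repair gene Msh6 (-0.24), so that 18.2% were called. Of 11 further chromatin genes, 2 were higher (the histone chaperone Asf1b, 0.48, and the histone acetyltransferase Hat1, 0.21) and 2 lower (the histone chaperone Nasp, -0.26, and the maintenance methyltransferase Dnmt1, -0.22), so that 36.4% were called, close to the share of all tested genes.

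Nucleotide supply beyond the 37 genes was divided. Of 20 genes, 2 were higher and 2 lower (20% called, against 34.7% of all tested genes). Dck, the deoxycytidine kinase of salvage, averaged 207 ± 31.9 CPM in diabetic and 131 ± 23.2 CPM in healthy libraries (log2 fold change 0.66 ± 0.14, edgeR adjusted p = 0.0063). Samhd1, which breaks deoxynucleotides down, averaged 628 ± 139 CPM in diabetic and 437 ± 58.6 CPM in healthy libraries (log2 fold change 0.52 ± 0.15, edgeR adjusted p = 0.0212). Rrm2b, the alternative small subunit of ribonucleotide reductase, induced by p53 and used outside S phase, had 26.4, 30.2, 34.0 and 37.6 CPM in the diabetic libraries, against 42.0, 44.6, 55.5 and 48.9 CPM in the healthy libraries. It was lower where Rrm2 was higher, with a log2 fold change of -0.57 ± 0.12 (edgeR adjusted p = 0.00461). Impdh2, of guanine nucleotide synthesis, had a log2 fold change of -0.30 ± 0.10 (edgeR adjusted p = 0.0422).

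Of 26 regulators of S-phase entry in the E2F, RB and G1/S group, 9 were higher (34.6%), against 17.4% of all tested genes, and 2 were lower (7.69%), against 17.3%. Their median log2 fold change was 0.12. Over 24 alternatives the higher count ran from 3, with the most abundant transcript of each gene, to 11. The lower count ran from 1 to 5, with 5 under library totals alone, and the median from 0.0066 to 0.18. The 4 higher genes with the lowest p were Ccnd3, cyclin D3 (307 ± 5.22 CPM in diabetic and 218 ± 17.4 CPM in healthy libraries, log2 fold change 0.50), Rbl1, the RB relative p107 (83.3 ± 7.95 CPM in diabetic and 61.5 ± 1.41 CPM in healthy libraries, 0.44), E2f2, an activating E2F (220.0 ± 29.5 CPM in diabetic and 163 ± 9.15 CPM in healthy libraries, 0.43), and E2f8, a repressing E2F (95.05 ± 10.3 CPM in diabetic and 75.4 ± 1.82 CPM in healthy libraries, 0.33), all with edgeR adjusted p of 0.00841 or less. Lower were Myb, a transcription factor of haematopoietic progenitors (219 ± 40.2 CPM in diabetic and 395 ± 15.2 CPM in healthy libraries, -0.85, edgeR adjusted p = 0.000501), and Tfdp2, an E2F partner (32.8 ± 7.31 CPM in diabetic and 54.0 ± 4.76 CPM in healthy libraries, -0.72). Of 5 CDK inhibitors tested of 7 listed, 3 were higher (60%, against 17.4% of all tested genes) and 0 lower (against 17.3%). Cdkn2c, the CDK4 and CDK6 inhibitor p18, had 35.3, 37.3, 44.5 and 30.8 CPM in the diabetic libraries, against 22.6, 21.3, 21.2 and 20.0 CPM in the healthy libraries, with no overlap (log2 fold change 0.80 ± 0.11, edgeR adjusted p = 0.000465). Cdkn1b, p27, and Cdkn2d, p19, had log2 fold changes of 0.53 and 0.35 (edgeR adjusted p = 0.0091 and 0.00437). The inhibitors Cdkn2a and Cdkn2b did not reach the count filter.

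Genes of G2 and mitosis, the phases that follow replication, were mostly higher. Of 25 G2 and mitosis genes, 22 were higher in the diabetic libraries (88.0%, against 17.4% of all tested genes) and 1 lower, with a median log2 fold change of 0.38. Lowest in p were Ccna2, cyclin A2 (166 ± 10.7 CPM in diabetic and 119.7 ± 6.30 CPM in healthy libraries, log2 fold change 0.47), Ube2c, a ubiquitin enzyme of mitotic exit (0.46), and the B cyclins Ccnb1 (0.41) and Ccnb2 (0.38), all with edgeR adjusted p of 0.00198 or less. The mitotic phosphatase Cdc25b was lower (42.4 ± 2.46 CPM in diabetic and 69.5 ± 14.1 CPM in healthy libraries, log2 fold change -0.71, edgeR adjusted p = 0.00252). The count of higher genes depended on the processing, at 15 with library totals alone, 13 on TPM without a filter and 11 with the most abundant transcript of each gene, and it was 19 without diabetic replicates 1 and 3. The summed mitotic level was 2523, 2572, 2816 and 2479.5 CPM in the diabetic libraries, against 1963, 2021, 2212 and 2211 CPM in the healthy libraries, so the groups did not overlap. Diabetic replicate 1, highest for the replication genes, was second lowest of the diabetic libraries in this sum. By gene, replicate 3 was the highest diabetic library for 12 of the 25 genes and replicate 1 for 10. The list was set beside the replication genes as a description, and the difference between the 2 lists was not tested. Like the other lists, it was chosen with earlier results of these data known.

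**Figure D5:**
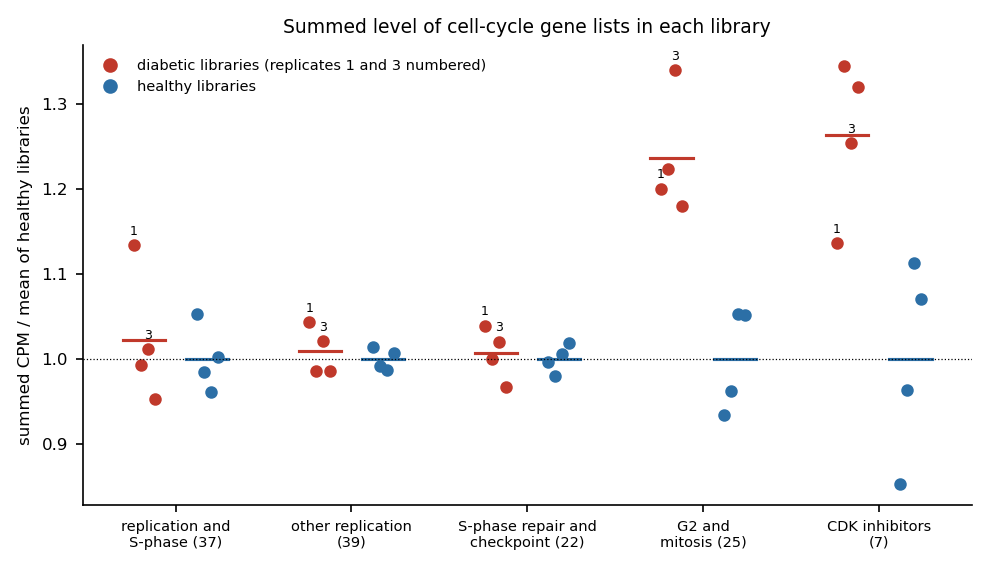
Summed CPM of 5 gene lists in each library, divided by the mean of the 4 healthy libraries (vertical axis, ratio), with 1 point per library, diabetic in red left of healthy in blue, and bars at group means; the number of genes is under each list and diabetic replicates 1 and 3 are numbered. The replication and S-phase sum averaged 1.02 times the healthy mean in the diabetic libraries, and the G2 and mitosis sum 1.24 times.

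The cultures held RNA of several cell types, and these moved between the groups. For comparison with the marker counts, 17.4% of all tested genes were higher and 17.3% lower. Of 12 macrophage markers 9 were higher, with a summed level of 9025 to 14280.1 CPM in the diabetic libraries, against 6490.1 to 7378 CPM in the healthy libraries. Csf1r, the M-CSF receptor, averaged 209 ± 22.5 CPM in diabetic and 162 ± 9.97 CPM in healthy libraries, whereas Mertk, a marker of mature macrophages, was near the limit of detection at 0.739 ± 0.193 CPM in diabetic and 1.06 ± 0.328 CPM in healthy libraries. Of 10 late neutrophil markers 9 were higher, with a summed level of 39610.0 to 62728 CPM in the diabetic libraries, against 35034 to 36601 CPM in the healthy libraries. Of 14 tested markers of pro-B and pre-B cells, which also cycle, 10 were lower and 0 higher, with a summed level of 1083 to 1255 CPM in the diabetic libraries, against 2055 to 2419.9 CPM in the healthy libraries. Rag1, of antigen receptor rearrangement, averaged 11.2 ± 7.02 CPM in diabetic and 135 ± 18.9 CPM in healthy libraries, and Cd79b, of the B cell receptor, 28.7 ± 11.3 CPM in diabetic and 277 ± 43.5 CPM in healthy libraries. Mast cell and basophil markers were higher in 6 of 6, with a summed level of 650.1 to 988 CPM in the diabetic libraries, against 299 to 398 CPM in the healthy libraries. Megakaryocyte markers were lower in 6 of 6, with a summed level of 133 to 208 CPM in the diabetic libraries, against 299 to 404 CPM in the healthy libraries. Stem and progenitor markers were higher in 1 and lower in 1 of 8, with a summed level of 288 to 455 CPM in the diabetic libraries, against 337 to 359 CPM in the healthy libraries. Erythroid markers were lower in 1 of 9, with a summed level of 790.0 to 2312 CPM in the diabetic libraries, against 1873 to 3324 CPM in the healthy libraries. Early neutrophil markers held 0 calls among 5, T and NK cell markers were higher in 4 of 7, mature B and plasma cell markers higher in 1 and lower in 3 of 7, and dendritic cell markers lower in 3 of 7. No marker listed in the table was at 0 in every library. The part of these cell types in the levels of the replication, S-phase and mitotic genes was not tested.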

How the data were processed

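RNA was measured in 8 first-phase libraries, 4 diabetic and 4 healthy. Per the labels, messenger RNA was enriched on oligo(dT) beads and sequenced as DNA nanoballs. SOAPnuke 1.5.6 removed poor reads, HISTA2 2.1.0, as the labels spell it, mapped the rest to mm10, and limma 3.66.0 served the authors' own comparison. Neither the quantifier nor its annotation and strand setting is named in the labels or headers. The values deposited by the authors for each RefSeq transcript, per the file headers, are an estimated count, not normalized, and an FPKM and a TPM, both scaled by transcript length. A further 8 columns of normalized values for single samples and 8 of group means were not used.

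Estimated counts of 60072 transcripts were summed per NCBI gene and rounded to whole numbers, since counts are divided between transcripts and need not be whole. Genes were filtered with edgeR's filterByExpr (minimum count 10, minimum total 15), scaled with TMM factors (0.913 to 1.01 in diabetic and 1.03 to 1.05 in healthy libraries) and tested with the quasi-likelihood test of edgeR 4.0.16 in R 4.3.3, group only, with Benjamini-Hochberg adjustment. The biological coefficient of variation was 12.4%. Alternatives used DESeq2 1.42.0, limma 3.58.1, other scalings, filters, pseudocounts of 1 and 0.1, single transcripts, a replicate block and left-out libraries. Deviations from the group means correlated from 0.115 to 0.182 between same-numbered diabetic and healthy libraries and from -0.178 to 0.0735 between others. No label states that the numbers pair the libraries. The replicate block, which treats same-numbered libraries as pairs, was run only as an alternative. The main calls, intervals and shares do not take such pairing into account. With the block, Mcm4 was not called (log2 fold change 0.17, edgeR adjusted p = 0.0517).

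The 37 genes and all lists were chosen with earlier results of these data known. In each role the genes with the lowest and the highest p were given library by library, with any gene called against the direction of most of its role; other lists name up to 4 called genes per direction with the lowest p. A called gene of 1 list is not reported here by name.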

Additional observations from a re-analysis of the deposited data

Results flagged for a closer look

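Among 78 groups of 4 libraries, 1 for each gene and group and for 2 summed lists, 6 held a library that stood apart by Dixon's criterion, where chance flags about 1 in 20 groups. Diabetic replicate 1 stood apart in 3 of them. Its Mcm3 level was 214 CPM, above the other diabetic libraries at 172, 175 and 179 CPM. Its Mcm5 level was 173 CPM, above 141, 142 and 144 CPM. Its Rpa2 level was 48.6 CPM, above 39.4, 40.8 and 40.95 CPM. Healthy replicate 1 stood apart for Rrm1, at 219 CPM above 203, 205 and 205 CPM, and for E2f1, at 36.9 CPM above 31.5, 31.7 and 32.3 CPM. Healthy replicate 3 was low for Rfc4, at 18.5 CPM below 21.0, 21.2 and 21.3 CPM. None of these 6 genes was called between the groups, and none passed the threshold when the library that stood apart was left out.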

How the results depend on the processing

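Over 962 pairs of gene and alternative, 833 kept their direction and side of the threshold, 24 lost a call, 17 gained one and 88 changed sign. The alternatives at an adjusted p of 0.01 and an unadjusted p of 0.05 reuse the main estimates, so no sign could change there. The unadjusted p of 0.05 could also end no call. Rrm2 and Pold1 kept their calls under all 26 alternatives, Ccne2 under 25, Rfc3 under 20 and Mcm4 under 9. Of the 37 genes, 5 were higher with DESeq2 size factors, 5 with DESeq2's Wald test and 6 at an unadjusted p of 0.05. At an adjusted p of 0.01, 2 were higher and 1 lower. Leaving out 1 library gave 2 to 4 higher and 1 to 2 lower genes and a median log2 fold change of -0.0040 to 0.087. The median was -0.053 with library totals, -0.079 and -0.082 on log2 FPKM with pseudocounts of 1 and 0.1, -0.066 and -0.068 on log2 TPM with the same pseudocounts, and -0.068 on TPM without a filter. With the replicate block, 2 genes were higher and 2 lower. Mcm4 lost its call there (log2 fold change 0.17, edgeR adjusted p = 0.0517), and the block changed no other call of the 37.

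Over all genes, 3346 were lower with library totals. On log2 FPKM 1356 and 1351 were higher, on log2 TPM 1460 and 1456, and on TPM without a filter 1387. With the most abundant transcript, which leaves fewer counts per gene, 1088 were higher and 964 lower. At an adjusted p of 0.01, 1157 were higher and 1167 lower. Leaving out 1 library gave 1710 to 2865 higher and 1583 to 2504 lower genes. Of the G2 and mitosis genes, 13 were higher on TPM without a filter, 11 with the most abundant transcript and 17 to 22 with 1 library left out, and 1 was lower in each setting run. Over 24 alternatives, higher and lower calls ran from 0 to 4 and 0 to 7 in the other replication genes, 1 to 3 and 0 to 4 in nucleotide supply, 3 to 11 and 1 to 5 in the E2F, RB and G1/S group, 0 to 4 and 0 to 4 in repair and checkpoint genes, and 1 to 3 and 0 to 4 in the further chromatin genes. CDK inhibitors held 3 higher genes in each and 0 to 1 lower, with 1 lower on TPM without a filter.

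The remaining sign changes belong to genes called neither in the main test nor in the setting named, and their cause was not tested. With library totals the log2 fold changes were Orc6 -0.013, Gins2 -0.036, Pcna -0.010, Rfc2 -0.026, Rfc4 -0.075, Rfc5 -0.042, Pola1 -0.033, Prim1 -0.076, Tk1 -0.053 and Uhrf1 -0.023. On log2 FPKM with a pseudocount of 1 they were Orc6 -0.020, Gins2 -0.050, Pcna -0.016, Rfc2 -0.020, Rfc4 -0.086, Rfc5 -0.049, Pola1 -0.033, Prim1 -0.079, Tk1 -0.18 and Uhrf1 -0.021, and with 0.1 Orc6 -0.021, Gins2 -0.055, Pcna -0.016, Rfc2 -0.020, Rfc4 -0.091, Rfc5 -0.051, Pola1 -0.037, Prim1 -0.082, Tk1 -0.18 and Uhrf1 -0.022. On log2 TPM with a pseudocount of 1 they were Orc6 -0.0063, Gins2 -0.038, Pcna -0.00069, Rfc2 -0.0053, Rfc4 -0.074, Rfc5 -0.035, Pola1 -0.021, Prim1 -0.066, Tk1 -0.17 and Uhrf1 -0.0062, and with 0.1, with or without a filter, Orc6 -0.0066, Gins2 -0.040, Pcna -0.00070, Rfc2 -0.0053, Rfc4 -0.076, Rfc5 -0.036, Pola1 -0.022, Prim1 -0.068, Tk1 -0.17 and Uhrf1 -0.0063. DESeq2 size factors gave Mcm3 0.016 and Mcm5 0.0077, DESeq2's Wald test Mcm3 0.016 and Mcm5 0.0078 and voom with quality weights Prim1 -0.0025. With the most abundant transcript they were Cdc45 -0.21, Fen1 0.0085 and Uhrf1 -0.32, and without diabetic replicates 1 and 3 Rfc5 -0.0036 and Tk1 -0.010. With 1 library left out, the log2 fold changes ran over Cdt1 -0.074 to 0.033, Chaf1a -0.11 to 0.00073, Gins1 -0.0040 to 0.26, Lig1 -0.11 to 0.00013, Mcm2 -0.14 to 0.0086, Mcm3 -0.062 to 0.045, Mcm5 -0.067 to 0.029, Prim1 -0.0080 to 0.069 and Rfc4 -0.049 to 0.11.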
